A study of Mus musculus with 4 samples.

Results

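The genes described here are 40 enzymes, carriers and regulators that feed or turn the citrate cycle, taken from a list of gene names with no threshold on any measured value, out of 22574 genes in a single-nucleus RNA sequencing (snRNA-seq) count matrix of neonatal mouse heart. They fall into 15 genes listed under the citrate cycle, 8 genes of pyruvate entry and 17 genes of amino acid and ketone catabolism. The citrate cycle list also holds the cytosolic Idh1 and Mdh1 and the NADP-dependent Idh2, so its sums and medians do not describe the matrix cycle alone. The 8585 nuclei came from 4 libraries, 1 for each combination of genotype and surgery. The WT libraries were from Nrf1fl/fl mice, whose Nrf1 gene (symbol Nfe2l1) is flanked by loxP sites, and the KO libraries from Nrf1fl/fl:aMHC-Cre mice, which also carry Cre recombinase under the cardiomyocyte promoter aMHC (alpha myosin heavy chain). All 4 groups therefore carried the floxed alleles, and the WT mice differed from the KO mice by lacking Cre. At postnatal day 3 an infarct (MI) was made by tying off the left anterior descending artery, or Sham surgery was done instead, and hearts were collected 1 day later. The treatment protocol gives a C57BL/6 background for all mice, and the strain field of the labels holds a different number for each library. Tissue below the ligation plane of 4 to 6 hearts of a genotype was pooled for each library, so single animals could not be told apart and no difference below has a replicate check.

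The citrate cycle oxidises acetyl-CoA in the mitochondrial matrix to carbon dioxide and reduced cofactors for the respiratory chain, and heart muscle depends on it for contraction. Pyruvate enters through the mitochondrial pyruvate carrier and the pyruvate dehydrogenase complex. The branched-chain amino acids leucine, isoleucine and valine and the ketone bodies enter further along, and the newborn heart shifts from glucose towards fat and ketone oxidation in the days after birth.

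UMIs (unique molecular identifiers, counts of captured RNA molecules) were summed over the nuclei of 1 population in 1 library and expressed as CPM, counts per 1000000 UMIs of that sum. CM1, the most abundant deposited cardiomyocyte population, held 1098 nuclei in WT-Sham, 2619 in KO-Sham, 1415 in WT-MI and 1308 in KO-MI, with 4151418 to 7335268 UMIs per library. The KO-Sham library stood apart: its CM1 nuclei had a median of 2632 UMIs against 3749 to 4043.5 in the other 3, and a median of 8.78% of UMIs from the mitochondrial genome against 5.05% to 6.13%. Nfe2l1, the targeted gene, was at 61.4 CPM in WT-Sham, 53.3 in KO-Sham, 44.1 in WT-MI and 57.7 in KO-MI. The library labelled KO-MI was thus above WT-MI by 0.39 on the log2 scale (95% counting interval 0.14 to 0.63), which goes against its label. Which exons are flanked was not given in the sources used here, so UMIs outside the deleted part may be among these counts. All 8 cardiomyocyte markers checked had UMIs in CM1 of every library, with a summed level of 34372 to 37132 CPM. Of all barcodes, 9 occurred in more than 1 library.

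A log2 ratio of CPM was computed for genes with at least 50 UMIs over both sums, and a member was called higher or lower when it passed 1.5-fold. In CM1, 39 of the 40 genes had enough UMIs in each comparison. The exception was Bdh1, the enzyme that interconverts the ketone bodies hydroxybutyrate and acetoacetate, with 2 or 3 UMIs in each library and no ratio. Pcx, pyruvate carboxylase, which makes oxaloacetate from pyruvate, was the scarcest gene to enter, at 5.78 CPM in WT-Sham, 3.68 in KO-Sham, 5.35 in WT-MI and 5.64 in KO-MI.

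**Figure D1:**
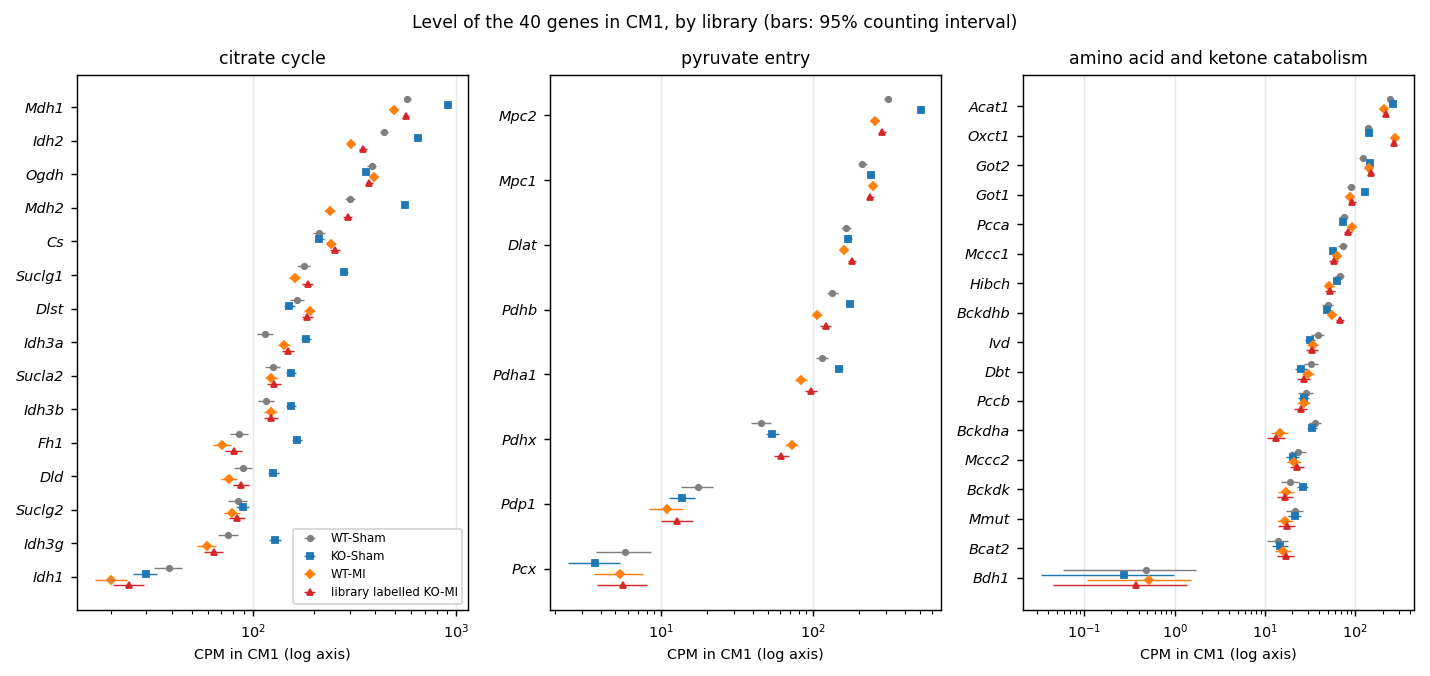
Level of each of the 40 genes in CM1 in CPM (log axis), with 1 point per library and a 95% counting interval. KO-Sham lies to the right of the other 3 libraries for many citrate cycle genes, such as Mdh2 at 562 CPM against 239 to 302, and Oxct1 is higher in both MI libraries.

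The first comparison was MI over Sham, which asks what infarction did to these transcripts 1 day later. The 2 members past 1.5-fold in the same direction in both genotypes belonged to ketone and branched-chain catabolism. The share of all genes past the fold in both genotypes, or with no overlap between Sham and MI libraries, was not counted. Oxct1, which encodes the enzyme that activates acetoacetate to acetoacetyl-CoA and so commits ketone bodies to oxidation, was higher after MI. It stood at 139 CPM in WT-Sham, 143 in KO-Sham, 272 in WT-MI and 266 in the library labelled KO-MI. The counting intervals of both MI libraries lay above those of both Sham libraries. The ratio was 1.96-fold in WT (log2 0.97, interval 0.83 to 1.11) and 1.86-fold in KO (log2 0.90, interval 0.78 to 1.01). Oxct1 had a UMI in 37.0% of CM1 nuclei of WT-Sham and 30.9% of KO-Sham, and in 59.5% and 57.8% of WT-MI and KO-MI. With each nucleus thinned to 1000 UMIs these shares were 14.2%, 13.0%, 21.3% and 22.6%.

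Bckdha, the alpha subunit of the branched-chain ketoacid dehydrogenase that carries out the irreversible step of branched-chain breakdown, was lower after MI. Its levels were 35.9 CPM in WT-Sham, 32.9 in KO-Sham, 14.5 in WT-MI and 13.3 in the library labelled KO-MI, so that the Sham and MI libraries did not overlap. The gene lies on the minus strand at chr7:25629946-25658981 (GRCm38) and overlaps B3gnt8 on the other strand, while Oxct1 lies on the plus strand at chr15:4026383-4155344 and overlaps 2 annotated genes on the other strand. It was lower by 2.48-fold in WT (log2 -1.31, interval -1.71 to -0.91) and by 2.46-fold in KO (log2 -1.30, interval -1.70 to -0.91). The other subunits of the same complex gave different values. Bckdhb, the beta subunit, had log2 ratios of 0.16 in WT and 0.50 in KO, and Dbt, the transacylase core, of -0.11 and 0.11. In the order WT-Sham, KO-Sham, WT-MI and KO-MI, Bckdhb was at 49.4, 48.3, 55.2 and 68.2 CPM and Dbt at 32.5, 24.9, 30.2 and 26.9 CPM, so neither had both MI libraries below both Sham libraries. Bckdk, the kinase that inhibits the complex, was at -0.14 in WT and past the fold at -0.64 in KO.

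**Figure D2:**
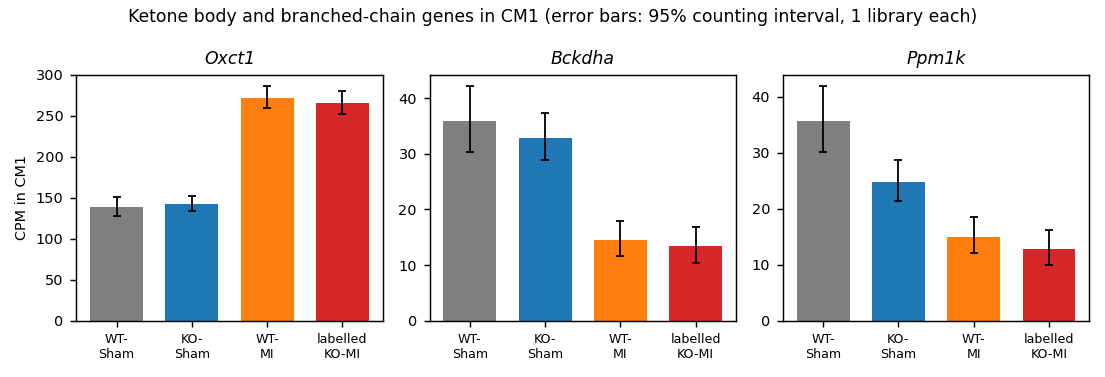
CPM in CM1 of Oxct1 and Bckdha and of Ppm1k, a further gene of branched-chain breakdown, with 1 bar per library and a 95% counting interval. Oxct1 is higher and the other genes are lower in both MI libraries than in both Sham libraries.

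Among 19 further genes of amino acid and ketone metabolism listed for comparison, 15 had enough UMIs in each MI over Sham comparison. In WT 0 were higher and 2 lower past 1.5-fold, where 8.08% of all genes tested were higher and 11.9% lower. In KO 0 were higher and 4 lower, where 10.0% of all genes were higher and 10.9% lower. Those lower in both genotypes were Ppm1k and Mcee. The share of all genes lower in both genotypes was not counted. Ppm1k, the phosphatase that activates the branched-chain dehydrogenase, was at 35.7 CPM in WT-Sham, 24.8 in KO-Sham, 15.0 in WT-MI and 12.8 in the library labelled KO-MI (log2 -1.25 in WT and -0.96 in KO). Mcee, the epimerase that acts before Mmut in propionate breakdown, was at 56.8, 89.2, 34.7 and 36.1 CPM in that order (log2 -0.71 and -1.31).

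Over all 17 genes of amino acid and ketone catabolism, 16 entered in CM1. Their median log2 ratio was -0.13 in WT and 0.03 in KO, beside -0.07 and 0.04 over all genes tested. Apart from Oxct1, Bckdha and Bckdk, none passed 1.5-fold in either MI over Sham comparison. The most abundant genes of the group beside Oxct1 were Acat1, the thiolase that splits acetoacetyl-CoA after Oxct1, and the paired aspartate aminotransferases Got1 (cytosolic) and Got2 (mitochondrial) of the malate-aspartate shuttle. Acat1 was at 244 CPM in WT-Sham, 258 in KO-Sham, 207 in WT-MI and 218 in KO-MI, and so slightly lower after MI in both genotypes (log2 -0.24 and -0.25). Got1 was level in WT (log2 -0.03) and at -0.46 in KO, where its Sham library was the highest of the 4 at 128 CPM. Got2 was at 120.0, 145, 141 and 148 CPM in the order WT-Sham, KO-Sham, WT-MI and KO-MI.

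The remaining genes of this group act on single branches. Hibch, a hydrolase of valine breakdown, was at 67.2 and 62.3 CPM in WT-Sham and KO-Sham and at 51.2 and 52.6 CPM in WT-MI and KO-MI. Pcca, a subunit of propionyl-CoA carboxylase, was slightly higher after MI (log2 0.31 in WT, interval 0.10 to 0.51, and 0.20 in KO, interval 0.02 to 0.39). For Bcat2, the mitochondrial aminotransferase that starts the pathway, and for Ivd, Mccc1, Mccc2, Pccb and Mmut, which act further down the leucine and propionate branches, the counting intervals of both MI over Sham ratios spanned 0.

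Citrate cycle genes moved unequally after MI. In WT the median of the 15 genes was -0.15, with 5 above 0 and 10 below, beside a median of -0.07 over all genes. Only Idh1, the cytosolic NADP-dependent isocitrate dehydrogenase, passed 1.5-fold, from 38.5 CPM in WT-Sham to 20.2 in WT-MI (log2 -0.93, interval -1.29 to -0.58). Idh1 was at 29.7 CPM in KO-Sham and 24.6 in the library labelled KO-MI, a log2 ratio of -0.27 whose interval spanned 0. Idh2, the mitochondrial NADP-dependent enzyme, was next at 443 CPM in WT-Sham and 303 in WT-MI (log2 -0.55).

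In KO the median was -0.33 against 0.04 over all genes, and 6 of 15 were lower past 1.5-fold, where 10.9% of all genes tested were lower. These were Fh1 (fumarase, log2 -1.03), Idh3g (a regulatory subunit of the NAD-dependent isocitrate dehydrogenase, -0.999), Mdh2 (mitochondrial malate dehydrogenase, -0.94), Idh2 (-0.90), Mdh1 (cytosolic malate dehydrogenase, -0.69) and Suclg1 (the alpha subunit of succinate-CoA ligase, -0.59). The same genes were lower by less in WT, from -0.15 for Suclg1 to -0.55 for Idh2.

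Against these stood 3 genes of the cycle with a log2 ratio above 0 in both genotypes. Cs, citrate synthase, which joins acetyl-CoA to oxaloacetate, was at 211 and 212 CPM in WT-Sham and KO-Sham and at 243 and 253 in WT-MI and KO-MI. Dlst, the transferase of the oxoglutarate dehydrogenase complex, was at 165 and 151 CPM in the Sham libraries and at 190.5 and 185 in the MI libraries. Ogdh, the first enzyme of that complex, was level at 384, 359, 394 and 374 CPM in WT-Sham, KO-Sham, WT-MI and KO-MI. Idh3a, the catalytic subunit of the NAD-dependent isocitrate dehydrogenase, went opposite ways, at 0.31 in WT (interval 0.15 to 0.48) and -0.29 in KO (interval -0.42 to -0.16). Its level was 115 CPM in WT-Sham, 182 in KO-Sham, 143 in WT-MI and 149 in KO-MI, so the Sham libraries differed more than the MI libraries did.

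Of the 8 genes of pyruvate entry, Mpc2, Mpc1, Dlat and Pdhb had the most UMIs. Mpc2, a subunit of the mitochondrial pyruvate carrier, was at 308 CPM in WT-Sham, 513 in KO-Sham, 255 in WT-MI and 284 in KO-MI (log2 MI over Sham -0.27 in WT and -0.85 in KO). Its partner Mpc1 was at 209, 239, 246 and 237 CPM in the same order and did not follow it (0.23 and -0.02). Pdha1 and Pdhb, the subunits of the first enzyme of pyruvate dehydrogenase, were lower in both genotypes (Pdha1 -0.45 and -0.62, Pdhb -0.33 and -0.52). Pdhb was at 133, 173, 106 and 120.2 CPM in the order WT-Sham, KO-Sham, WT-MI and KO-MI. Dlat, the transacetylase core, was at 164, 169.7, 158 and 179 CPM in that order, with ratios of -0.06 and 0.07 whose intervals spanned 0. Pdhx, the protein that binds dihydrolipoamide dehydrogenase to that core, was at 45.3 CPM in WT-Sham and 72.1 in WT-MI (log2 0.67), and at 53.7 and 61.6 in KO-Sham and KO-MI (log2 0.20). Pdp1, the phosphatase that activates the complex, was at 17.3 CPM in WT-Sham and 10.9 in WT-MI (log2 -0.68, interval -1.19 to -0.17), and at 13.8 and 12.8 in KO-Sham and KO-MI. In CM1 nuclei with under 5% mitochondrial UMIs that ratio turned to 0.38, from 18 and 48 UMIs, with an interval that spanned 0.

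Counted over all members in CM1, 2 were higher and 3 lower in WT, where 8.08% of all genes tested were higher and 11.9% lower. In KO 2 were higher and 10 lower, where 10.0% of all genes were higher and 10.9% lower. The higher pair in KO were Oxct1 and Pcx, and the interval of Pcx spanned 0. The members' share was below that of all genes in each of these counts except the lower calls in KO. The MI libraries also differed from the Sham libraries in myeloid genes, in atrial genes and in nuclear RNA. The summed level of the 11 myeloid genes checked was 123 and 95.6 CPM in WT-Sham and KO-Sham and 546 and 272 CPM in WT-MI and KO-MI, with all 11 detected in each. The 8 atrial genes include Nppa, which the study names as a marker of cardiac stress. These 8 summed to 185 and 307 CPM in the Sham and 2001 and 2441 CPM in the MI libraries, with Bmp10 at 0 in 3 of 4. The 4 nuclear long RNAs summed to 99436 and 91296 CPM in WT-Sham and KO-Sham and to 124390 and 123140 in WT-MI and KO-MI. Their part in these ratios was not tested.

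**Figure D3:**
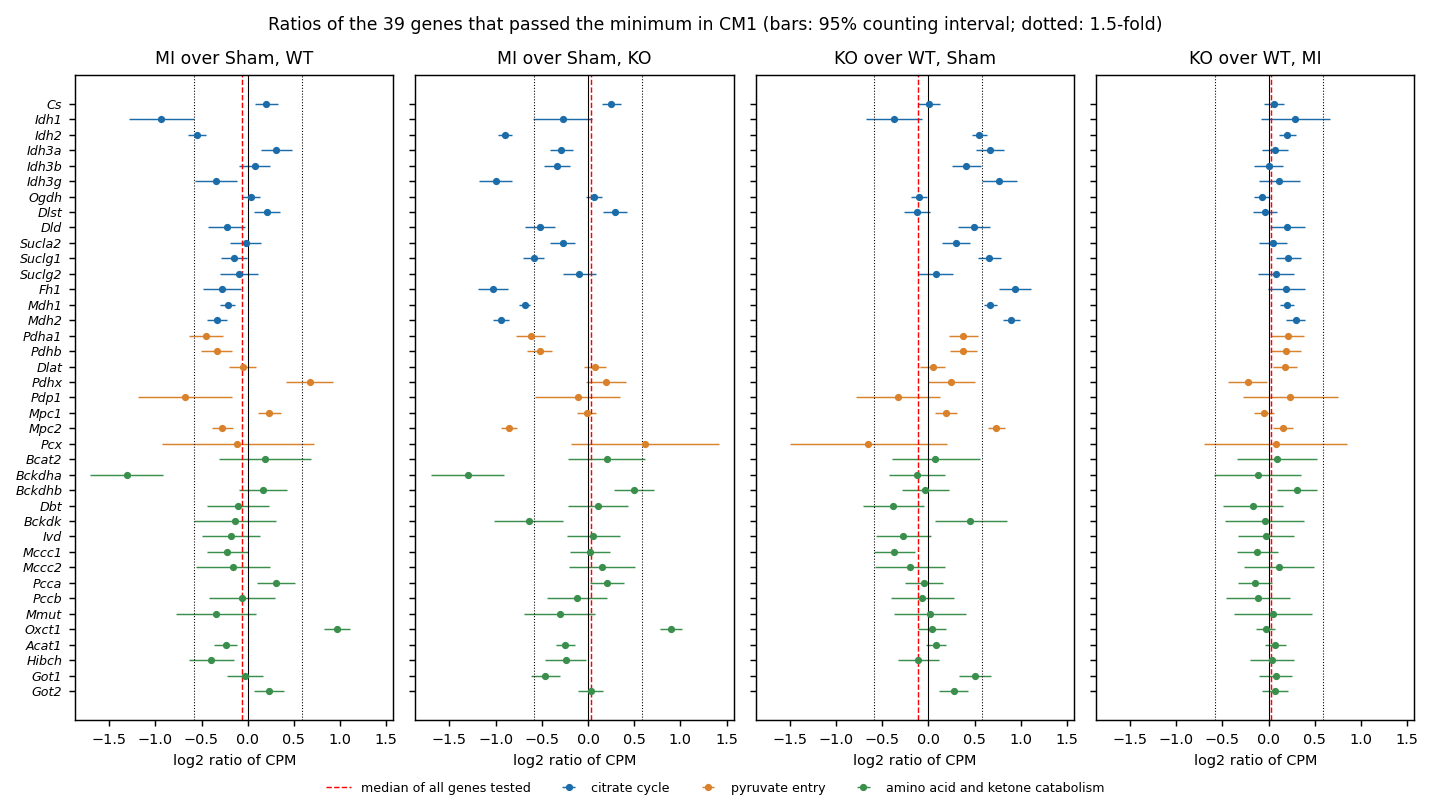
Log2 ratio of CPM in CM1 for the 39 genes with enough UMIs, in the 4 comparisons, with 95% counting intervals, dotted lines at 1.5-fold and a dashed line at the median of all genes tested. Oxct1 and Bckdha are past the fold on opposite sides in both MI over Sham panels, and 12 of the 15 citrate cycle genes lie right of 0 in KO over WT, Sham, with Idh1, Dlst and Ogdh left of it.

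The second comparison was the libraries labelled KO over those labelled WT at each surgery, in a design meant to test loss of Nrf1 in cardiomyocytes. Nfe2l1 itself was at -0.20 in Sham, with an interval that spanned 0, and at 0.39 in MI, so its counts did not show the loss in either. In Sham, 12 of the 15 citrate cycle genes were above 0, with a median log2 ratio of 0.49 against -0.12 over all genes tested, and 6 were higher past 1.5-fold, where 6.21% of all genes tested were higher. Fh1 was at 85.8 CPM in WT-Sham and 164 in KO-Sham (log2 0.94, interval 0.77 to 1.11), with 70.7 and 80.6 in WT-MI and KO-MI. Mdh2 was at 302 and 562 CPM in the Sham libraries (log2 0.90, interval 0.81 to 0.99) and at 239 and 293 in the MI libraries. Mdh1 was at 575 and 914 CPM in the Sham libraries (log2 0.67) and at 494 and 568 in the MI libraries. KO-Sham was the highest of the 4 libraries for all 3 genes, while WT-Sham and both MI libraries lay close together. Idh3g (0.77), Idh3a (0.66) and Suclg1 (0.66) were the others past the fold, and Idh2 was just short of it at 0.55 (443 CPM in WT-Sham and 649 in KO-Sham).

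Not every gene of the cycle was higher in KO-Sham. Cs (0.01), Ogdh (-0.10), Dlst (-0.12) and Suclg2 (0.08), the GDP-forming beta subunit of succinate-CoA ligase, were near 0, and Idh1 was lower at -0.37 (interval -0.68 to -0.07). Idh3b (0.41), Dld (0.49), the dihydrolipoamide dehydrogenase shared by several complexes, and Sucla2 (0.30), the ADP-forming beta subunit, lay between. In pyruvate entry, Mpc2 was higher (log2 0.73) and Pcx, from 24 and 27 UMIs, was lower at -0.65 with an interval that spanned 0. In amino acid and ketone catabolism 0 of 16 passed the fold: Got1 was highest (0.51) and Dbt lowest (-0.38), with a group median of -0.04. In all, 7 members were higher and 1 lower in KO-Sham, beside 6.21% of all genes tested higher and 4.09% lower, so the members' share was above that of all genes for higher calls and below it for lower ones.

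These ratios rest on the KO-Sham library, which also forms the denominator of MI over Sham in KO, so a member high in that library appears high in the former and low in the latter. The summed level of the 13 genes of the mitochondrial genome was 87163 CPM in KO-Sham against 53523 to 63237 in the others, and the 7 endothelial genes summed to 820 CPM against 450 to 544. Restricted to the CM1 nuclei with under 5% mitochondrial UMIs (130 nuclei in KO-Sham and 337 in WT-Sham), the median for the citrate cycle was 0.30 in place of 0.49, and 2 members in place of 7 were higher past the fold, namely Idh3g (0.70) and Mpc2 (0.68). In that set 33 members entered and 2 were lower, where 5.43% of all genes tested were higher and 8.24% lower, so the members' share was near that of all genes. Fh1 was then at 0.55, Mdh2 at 0.50 and Mdh1 at 0.31, with intervals above 0. In MI over Sham, KO, the same restriction left 4 members lower in place of 10 (Idh2, Idh3g, Mpc2 and Bckdha) and 4 higher, of 37 that entered, where 10.7% of all genes were lower and 15.2% higher. There too the members' share of lower calls, over all groups together, was near that of all genes. The citrate cycle median in that set was -0.24, beside 0.02 over all genes tested. For KO over WT, Sham its median of 0.30 stood beside -0.05 over all genes tested. Oxct1 was 1.04 and 0.92 in KO and WT under this restriction, and Bckdha -1.13 and -1.53. The part of mitochondrial RNA in these values was not tested further.

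**Figure D4:**
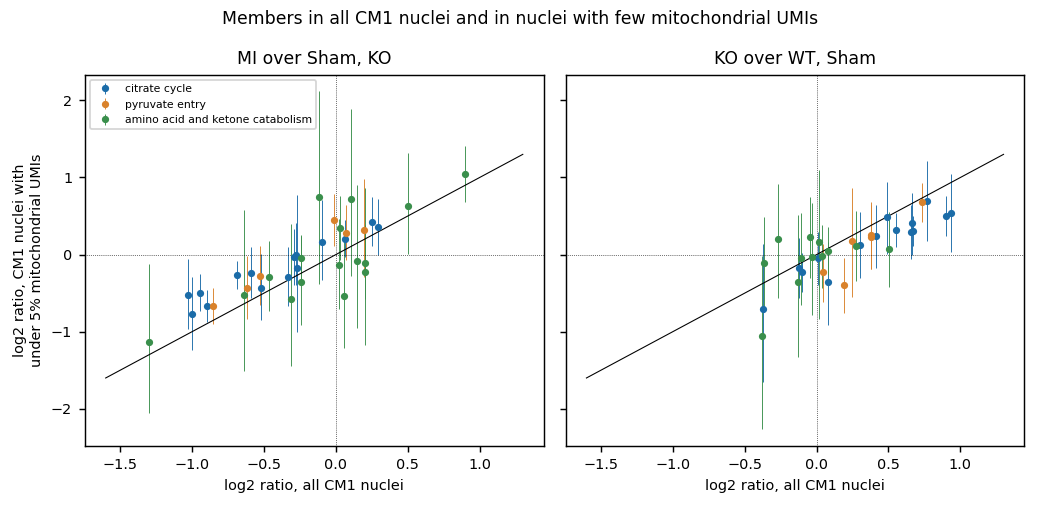
Log2 ratio of each member in all CM1 nuclei (horizontal) against that in CM1 nuclei with under 5% mitochondrial UMIs (vertical, with 95% counting interval), for both comparisons that use the KO-Sham library. The solid line marks equal values. In KO over WT, Sham the citrate cycle genes with the largest ratios lie below the line, such as Fh1 at 0.94 and 0.55.

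After MI the genotypes were close. None of the 39 members passed 1.5-fold in the library labelled KO-MI over WT-MI, where 2.33% of all genes tested were higher and 1.81% lower. The citrate cycle median was 0.12, beside 0.02 over all genes tested. Of its 15 genes 13 were above 0, with Mdh2 highest (0.29, interval 0.19 to 0.40) and Ogdh lowest (-0.07). Pdp1 (0.23) and Pdhx (-0.23) bounded pyruvate entry, and Bckdhb (0.31, interval 0.09 to 0.53) and Dbt (-0.17) bounded amino acid and ketone catabolism. Oxct1 and Bckdha gave -0.03 and -0.12, with intervals from -0.14 to 0.07 and from -0.60 to 0.35. Since Nfe2l1 goes against the label of this library, these ratios are given for the library as labelled. The Nfe2l1 counts may include UMIs outside the deleted part, so they do not settle the label.

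The other genes of the 3 pathways, listed by name, were counted in the same way. Of 12 further citrate cycle genes, among them aconitase and the succinate dehydrogenase subunits, 10 entered. None was called in WT after MI or in either KO over WT comparison, and Sdhd was lower in MI over Sham, KO. Of 12 further pyruvate genes, 10 or 11 entered, with 0 higher and 1 lower in each MI over Sham comparison, 2 higher and 1 lower in KO over WT, Sham, and 1 higher and 2 lower in MI. Of the further amino acid and ketone genes, 2 of 16 were higher in KO over WT, Sham and 0 of 15 in MI, and 0 lower in either. Of all genes tested, 8.08% were higher and 11.9% lower in MI over Sham, WT, and 10.0% and 10.9% in KO. In KO over WT, Sham 6.21% were higher and 4.09% lower, and in MI 2.33% and 1.81%. Me1, the cytosolic malic enzyme that yields NADPH, was the only gene of these 3 lists past the fold in the same direction in both KO over WT comparisons. The share of all genes past the fold in both was not counted. Me1 was at 28.9 CPM in WT-Sham, 17.3 in KO-Sham, 35.2 in WT-MI and 18.0 in KO-MI, so both KO libraries lay below both WT libraries (log2 -0.74 and -0.96).

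Gene length was set beside the ratios because long genes give more intronic UMIs in nuclei. Across the 39 members the Spearman correlation of genomic span with the log2 ratio was 0.25 for MI over Sham in WT, 0.53 in KO, -0.51 for KO over WT in Sham and -0.31 in MI. Over all genes tested it was 0.03, 0.23, -0.39 and -0.21. The 20 members with shorter spans had a median of 0.39 in KO over WT, Sham and the 19 longer ones of -0.05. Span moved with the ratio for all genes as for the members in both comparisons that use KO-Sham. It also did so in KO over WT, MI, which does not use that library. Genes share the libraries and are not independent, and the part of length was not tested. Several members overlap other annotated genes, such as Idh3b with Nop56 and Fh1 with Kmo, both on the opposite strand. Whether the counting used strand was not given in the sources used here, so these counts are uncertain.

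The promoters were read for 35 members from RefSeq sequences (GRCm38.p6), and no entry was found for Idh3a, Pdp1, Dbt, Mmut and Acat1. Factors of the Nrf1 family bind antioxidant response elements, so the core TGACNNNGC was searched on both strands in the 250 bases before each start. It was found for 5 of the 35 members (14.3%), namely Idh3g, Dlst, Sucla2, Mpc1 and Bckdhb, and for 13.5% of the 15696 genes of the matrix with a promoter. The estrogen-related receptor element TCAAGGTCA was found for 0 members and 0.331% of genes. GCGCATGC, the core bound by nuclear respiratory factor 1, which is another protein than the Nrf1 studied here, was found for Ogdh and Pccb (5.71%) and for 3.86% of genes. These letters are given as sequence, and no binding was measured. The upstream sequence is shown for Oxct1, which was higher after MI in both genotypes, and for Fh1 and Idh3g. These 2 were among the members with the highest KO over WT ratios in Sham. Mdh2, whose ratio lay between theirs, is not shown. Each stretch leaves out annotated untranslated regions, is written 5′ to 3′ on the gene's strand, and has TGACNNNGC in capitals.
Oxct1 chr15:4026178-4026382 (plus strand): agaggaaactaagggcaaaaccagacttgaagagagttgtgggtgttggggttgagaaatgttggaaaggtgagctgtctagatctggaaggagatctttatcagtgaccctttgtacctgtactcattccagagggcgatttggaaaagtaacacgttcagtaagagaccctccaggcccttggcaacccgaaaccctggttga
Fh1 chr1:175625636-175625885 (minus strand): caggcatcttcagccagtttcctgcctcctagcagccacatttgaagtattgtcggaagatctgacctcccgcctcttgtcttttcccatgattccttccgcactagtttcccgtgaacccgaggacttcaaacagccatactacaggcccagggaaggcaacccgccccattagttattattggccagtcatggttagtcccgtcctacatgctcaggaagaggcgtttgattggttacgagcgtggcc
Idh3g chrX:73786898-73787027 (minus strand): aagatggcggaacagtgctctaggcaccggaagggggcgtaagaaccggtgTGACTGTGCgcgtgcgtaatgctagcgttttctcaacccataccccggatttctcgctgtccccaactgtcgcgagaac
The shown stretches of Oxct1 and Fh1 hold none of the 3 motifs, and that of Idh3g holds 1 match, which begins 79 bases before its start. Another match for Idh3g begins 218 bases before the start, outside the stretch shown.

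CM4 is the population to which the study gives an embryonic gene signature. It had 118 to 351 nuclei per library. Summed over the 15 citrate cycle genes, its level was above that of CM1 in all 4 libraries, with log2 ratios of 1.10 in WT-Sham, 0.47 in KO-Sham, 0.42 in WT-MI and 0.79 in KO-MI. The median over all genes lay between -0.43 and -0.09. Mdh2 was 1.71, 0.64, 1.22 and 1.55 higher in CM4 than in CM1 on the log2 scale in that order, and Idh2 1.46, 0.69, 0.73 and 1.14. Ogdh was not, at -0.01, -0.05, -0.51 and -0.55. CM4 nuclei also had more mitochondrial UMIs, with medians of 9.47% to 14.6%, and red blood cell genes summed to 3538 to 12805 CPM in CM4 against 1891 to 3829 in CM1. Nuclear long RNAs summed to 24434 to 59985 CPM in CM4 against 91296 to 124390 in CM1. Fibroblast genes summed to 2011 to 2480.5 against 905 to 1048, and endothelial genes to 1583 to 1659 against 450 to 820. Median UMIs per nucleus were 1715.5 to 2394 in CM4 against 2632 to 4043.5 in CM1. Cardiomyocyte markers summed to 30383 to 38928 CPM in CM4 and 34372 to 37132 in CM1. Their part was not tested.

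Within CM4 the citrate cycle was lower after MI in WT. The 15 genes summed to 6402 CPM in WT-Sham, 5770.1 in KO-Sham, 3643 in WT-MI and 5112 in KO-MI, so WT-MI was the lowest of the 4. Of the 13 genes with enough UMIs 9 were lower past 1.5-fold, where 16.1% of all genes were lower, with a median of -0.70 against 0.13 over all genes. Idh2 was lowest, from 1221 CPM in WT-Sham to 501 in WT-MI (log2 -1.29, interval -1.53 to -1.05), and Oxct1 highest among the members (0.54, interval 0.01 to 1.08). Idh2 was at 1047 CPM in KO-Sham and 768 in KO-MI. Oxct1 was at 129 CPM in WT-Sham, 168 in KO-Sham, 187 in WT-MI and 180.4 in KO-MI, so WT-Sham was the lowest. In KO the median was -0.15 and 2 of 14 were called lower, where 16.9% of all genes were lower. Hibch was the lowest member there (-1.27), at 48.0, 63.0, 35.6 and 26.2 CPM in WT-Sham, KO-Sham, WT-MI and KO-MI. Pdhx was the highest (0.70, with an interval that spanned 0), at 50.6, 41.1, 54.6 and 66.9 CPM. Over all members that entered, 0 were higher and 13 of 22 lower in WT, where 25.2% of all genes were higher and 16.1% lower. In KO 1 was higher and 4 of 26 lower, where 15.1% were higher and 16.9% lower. The nuclear long RNAs summed to 24434 CPM in WT-Sham and 59985 in WT-MI and the mitochondrial genome to 140220 and 104770, and their part was not tested.

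KO over WT in CM4 went opposite ways at the 2 surgeries for the citrate cycle sum. It was -0.15 in Sham (interval -0.22 to -0.08) and 0.49 for the library labelled KO-MI over WT-MI (interval 0.39 to 0.59). The nuclear long RNAs summed to 24434 CPM in WT-Sham and 54324 in KO-Sham, and the mitochondrial genome to 140220 and 113910. Between WT-MI and KO-MI, red blood cell genes went from 8411 to 3538 CPM, myeloid genes from 973 to 512 and nuclear long RNAs from 59985 to 39407. The atrial genes, which include the stress marker Nppa, went from 5321 to 9797. Their part in these ratios was not tested. In Sham 1 of 28 members was higher, Mccc1 (0.73), a subunit of the carboxylase of leucine breakdown, and 2 were lower, Bckdha and Bckdk (both -1.001, each from 26 and 24 UMIs), where 16.3% of all genes were higher and 6.71% lower. In MI 6 of 22 were higher (Sucla2 0.72, Got2 0.67, Mdh2 0.63, Idh2 0.62, Idh3a 0.62 and Dld 0.60) and 0 lower, where 9.67% of all genes were higher and 13.9% lower. The interval of Mccc1 spanned 0, and it was at 37.9, 63.0, 30.9 and 29.1 CPM in WT-Sham, KO-Sham, WT-MI and KO-MI. Bckdha was at 65.7, 32.9, 19.0 and 8.73 CPM in that order, and so highest in WT-Sham. Sucla2 was at 192, 185, 119 and 195 CPM, with WT-MI below the other 3. Ogdh was the lowest member in MI (-0.12), at 382, 346, 278 and 256 CPM. WT-MI is shared by this comparison and by MI over Sham in WT. The difference between the surgeries was not tested. Nfe2l1 goes against the label of KO-MI, though its counts may include UMIs outside the deleted part.

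**Figure D5:**
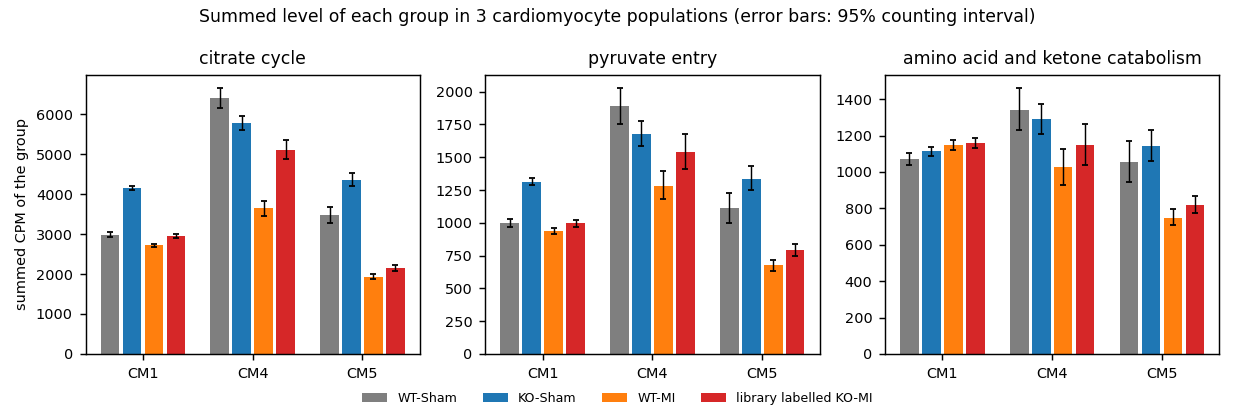
Summed CPM of the 3 groups in CM1, CM4 and CM5, with 1 bar per library and a 95% counting interval. The citrate cycle sum is highest in CM4 in each library, and in CM5 both MI libraries, at 1937 and 2159, are below both Sham libraries, at 3478 and 4357.

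CM5, the population with 89 nuclei in WT-Sham, 234 in KO-Sham, 339 in WT-MI and 355 in KO-MI, had lower levels of all 3 groups after MI in both genotypes. The citrate cycle sum was 3478 CPM in WT-Sham, 4357 in KO-Sham, 1937 in WT-MI and 2159 in KO-MI. Among the 14 cycle genes that entered, the median log2 ratio was -0.84 in WT and -0.87 in KO, against 0.01 and 0.10 over all genes, and 10 and 11 of the 14 were lower past 1.5-fold, where 20.2% and 16.6% of all genes were lower. Idh2 was the lowest member in both genotypes, at 544 CPM in WT-Sham, 697 in KO-Sham, 215 in WT-MI and 233 in KO-MI (log2 -1.34 and -1.58). Fh1 gave -1.34 and -1.29, Mdh1 -1.07 and -1.23, and Ogdh, level in CM1, -0.83 and -0.65. Suclg2 (0.14 in WT and -0.04 in KO) had intervals that spanned 0, at 76.9, 75.6, 84.6 and 73.4 CPM in WT-Sham, KO-Sham, WT-MI and KO-MI.

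Pyruvate entry and amino acid and ketone catabolism were also lower in CM5 after MI, with medians of -0.67 and -0.66 in WT and -0.60 and -0.56 in KO. Acat1 was at -1.11 and -0.80. Oxct1 was at 203 CPM in WT-Sham, 178 in KO-Sham, 193 in WT-MI and 214 in KO-MI, with log2 ratios of -0.07 and 0.26 and intervals that spanned 0, so the difference seen in CM1 was not detectable here. In WT 0 were higher and 18 of 28 members lower, where 21.2% of all genes were higher and 20.2% lower. In KO 0 were higher and 18 of 29 lower, where 24.1% were higher and 16.6% lower. The 8 cardiomyocyte markers moved the same way, at 36732 and 37318 CPM in WT-Sham and KO-Sham and 24919 and 24712 in WT-MI and KO-MI, while nuclear long RNAs summed to 94005 and 90180 against 148080 and 131800. Their part was not tested.

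KO over WT in CM5 was smaller. In Sham 3 of 26 members were higher (Mdh2 0.69, Idh3g 0.65 and Idh3b 0.63) and 0 lower, where 8.47% of all genes were higher and 7.91% lower, and Cs was lowest (-0.26). Mdh2 was at 394, 634, 217 and 247 CPM in WT-Sham, KO-Sham, WT-MI and KO-MI, and Cs at 234, 195, 179 and 174. In MI 1 of 30 was higher, Idh3g (0.63), and 0 lower, where 5.44% were higher and 2.06% lower, and Idh3b was lowest (-0.32, with an interval that spanned 0). In the same order Idh3g was at 86.1, 135, 47.4 and 73.4 CPM and Idh3b at 98.4, 153, 92.7 and 74.1 CPM, both highest in KO-Sham.

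CM2, with 27 to 124 nuclei, is given by its sums only: the citrate cycle genes reached 2702, 3621, 2443 and 2795 CPM in WT-Sham, KO-Sham, WT-MI and KO-MI.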

How the data were processed

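The authors aligned snRNA-seq reads with Cell Ranger (version not given in the sources used here) and a pre-mRNA version of mm10/GRCm38, which counts intronic reads. They removed doublets called by Scrublet, kept cardiomyocyte clusters with Seurat 3, and merged CM1 and CM3 as CM1. No doublet caller was run again here. The labels and the study's methods name different versions of the 10x Genomics 3′ kit. The deposited matrix holds raw UMI counts with no normalization, and nuclei in it had 537 to 2499 detected genes. The deposited table of nuclei gives the library, the population and the percent of UMIs from the mitochondrial genome, and its other 10 columns went unused.

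Samples were grouped by their titles, with 1 library per group, so no test was run and no p-value is given. UMIs were summed per library and population. CPM are given with exact 95% Poisson intervals and log2 ratios with conditional binomial intervals, which cover counting error only. Ratios needed 50 UMIs over both sums. A gene was called past 1.5-fold, and no ratio was made where both sums held 3 UMIs or fewer. Calculations used Python 3.11.15, scipy 1.17.1 and edgeR 4.0.16 (TMM scaling only), and were tested on simulated counts. Positions are from GENCODE (GRCm38). The label Mut was matched to Mmut.

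The members and all gene lists were chosen with earlier results of these data known. Values are given for the 4 members of each group with the most UMIs in CM1, for the highest and lowest member of each group and comparison in CM1 and of each comparison in CM4 and CM5, and for members past 1.5-fold in the same direction in both MI over Sham or both KO over WT comparisons. Other genes of the pathways are named by the last rule, and 1 of those listed is not reported here. Sdhd, Hibch, Pcca, Idh3b and further members were added after their values were seen. The alternatives were no minimum, TMM scaling, all nuclei, and the mitochondrial genome left out of the total. Further ones were CM1 by both deposited labels, nuclei thinned to 1000 UMIs, and CM1 nuclei under 5% mitochondrial. CM1 by both labels means the population CM1 with CM1 or CM3 as the label transferred from the authors' earlier data.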

Additional observations from a re-analysis of the deposited data

Results flagged for a closer look

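In CM4, 2 citrate cycle genes had KO over WT ratios of opposite sign at the 2 surgeries, with both counting intervals off 0 and 1 of the values past 1.5-fold. Idh2, the mitochondrial NADP-dependent isocitrate dehydrogenase, was at -0.22 in Sham (interval -0.39 to -0.05) and 0.62 in MI (interval 0.35 to 0.89) on the log2 scale. Idh3a, the catalytic subunit of the NAD-dependent enzyme, was at -0.48 in Sham (interval -0.81 to -0.15) and 0.62 in MI (interval 0.19 to 1.05). In the same CM4 libraries the nuclear long RNAs summed to 24434 CPM in WT-Sham and 54324 in KO-Sham. Red blood cell genes summed to 8411 CPM in WT-MI and 3538 in KO-MI, and myeloid genes to 973 and 512. The atrial genes, which include the stress marker Nppa, summed to 5321 and 9797 there. The part of these sums was not tested. With 1 library per group the difference between surgeries was not tested. Nfe2l1 goes against the label of the KO-MI library, though its counts may include UMIs outside the deleted part.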

How the results depend on the processing

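With 1 library per group no library could be left out in turn, and no paired analysis was possible because each group has a single library. Of 84 medians recomputed under the alternatives, 81 stayed within the counting interval of the middle member. Of 56 counts of members past 1.5-fold, 44 stayed within 1.5 times. With no minimum the same members entered, so 12 of these medians and 8 of these counts could not change. TMM scaling gave 1 member higher in MI over Sham, KO in place of 2, as did leaving out the mitochondrial genome and thinning to 1000 UMIs, and 0 members lower in KO over WT, Sham in place of 1, as did all nuclei and CM1 by both labels. All nuclei gave a citrate cycle median of -0.35 in MI over Sham, WT, 1 member higher there, and 4 members higher in KO over WT, Sham. CM1 nuclei under 5% mitochondrial gave 4 higher and 4 lower in MI over Sham, KO, 2 higher and 2 lower in KO over WT, Sham with a citrate cycle median of 0.30, and a pyruvate entry median of 0.038 in KO over WT, MI. Pdp1 reversed to 0.38 there in MI over Sham, WT. The cause was not tested. That set held 130 KO-Sham nuclei and 498401 UMIs, so fewer members had enough UMIs (33 of 40 in KO over WT, Sham). Of 600 values of single members, 522 stayed within their interval, 77 moved outside it and 1 reversed. Only values past 1.5-fold in the main setting could count as reversed, so other changes of sign are within the 77 or 522. Mpc1 in KO over WT, Sham went from 0.19 to -0.39 (interval -0.75 to -0.04) in CM1 nuclei under 5% mitochondrial. The 522 include 88 values with no minimum, which could not change.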
